A study of Mus musculus with 12 samples.

Results

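Potassium channel genes were taken as every gene whose symbol in the deposited table starts with Kcn, which gave 98 of 24421 genes. By symbol they were 40 voltage-gated channel subunits, 15 inward rectifiers, 14 two-pore channels and 8 members of the calcium- or sodium-activated family. The rest were 17 auxiliary subunits and 4 noncoding RNAs named after a channel gene. RNA of whole adrenal glands, cleaned of fat, from 2-month-old female mice on a mixed sv129-C57BL/6 background gave 12 libraries, 4 for each genotype (Abcg1 cKO, Abca1 cKO and their controls). By the series' own description, all 3 genotypes carried a Cre recombinase in the aldosterone synthase gene Cyp11b2, which recombines floxed alleles in steroidogenic cells of the adrenal cortex. Control mice had Cre alone (the methods, which cover the whole study, also name littermates with a conditional allele as controls), Abca1 cKO mice had both Abca1 alleles floxed, and Abcg1 cKO mice both Abcg1 alleles. The values used here were the authors' mean normalized count of the 4 Abcg1 cKO libraries and of the 8 control and Abca1 cKO libraries combined. No spread between animals can be given with these means, no difference between them was tested, and controls and Abca1 cKO mice cannot be told apart within the combined mean. The means summed to 1.89e+07 normalized counts per library in Abcg1 cKO against 1.83e+07 for the combined mice. The mean of Abcg1 itself, counted over the whole gene and not over the deleted part alone, was 249.7 in Abcg1 cKO against 305 for the combined mice. Cyp11b2 was at 3483 and 3163, and Th, which marks chromaffin cells of the medulla, at 14984 and 8765.

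Potassium channels let potassium leave the cell and so hold the membrane at a negative potential. In the aldosterone-producing zona glomerulosa, background channels with 2 pore domains per subunit set the resting potential, and a rise in blood potassium or angiotensin II that overcomes them opens voltage-gated calcium channels and starts aldosterone synthesis. In chromaffin cells of the medulla, voltage-gated and calcium-activated potassium channels shape the action potentials that release catecholamines. Whole-gland RNA mixes these cells with vessels, nerve, immune cells and fat, and here fewer cells of a type cannot be told apart from less RNA per cell.

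The windows around the transcription start of 3 members are shown, each from 250 bases upstream to 50 bases downstream (RefSeq, GRCm38.p6, minus strand, written 5′ to 3′). Kcnk5 is shown because it had the largest ratio between the groups, Kcnj5 because it is the inward rectifier best known from aldosterone-producing cells, and Kcnj8 because its window carries a run of sterol element letters. Capitals mark TCACNCCAC, the sterol regulatory element letters, found on either strand. The windows lie at chr14:20181733-20182032 for Kcnk5, chr9:32344295-32344594 for Kcnj5 and chr6:142571565-142571864 for Kcnj8.
Kcnk5: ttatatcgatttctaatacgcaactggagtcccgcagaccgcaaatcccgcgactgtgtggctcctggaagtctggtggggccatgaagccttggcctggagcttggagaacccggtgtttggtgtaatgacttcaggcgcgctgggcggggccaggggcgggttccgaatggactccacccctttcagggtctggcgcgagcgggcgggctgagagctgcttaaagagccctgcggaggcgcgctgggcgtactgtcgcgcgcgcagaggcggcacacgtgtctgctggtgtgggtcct
Kcnj5: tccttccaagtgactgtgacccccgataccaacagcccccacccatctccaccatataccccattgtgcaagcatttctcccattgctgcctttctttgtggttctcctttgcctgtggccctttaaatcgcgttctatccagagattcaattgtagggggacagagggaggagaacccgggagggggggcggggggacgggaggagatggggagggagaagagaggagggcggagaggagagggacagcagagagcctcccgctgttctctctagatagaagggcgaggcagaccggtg
Kcnj8: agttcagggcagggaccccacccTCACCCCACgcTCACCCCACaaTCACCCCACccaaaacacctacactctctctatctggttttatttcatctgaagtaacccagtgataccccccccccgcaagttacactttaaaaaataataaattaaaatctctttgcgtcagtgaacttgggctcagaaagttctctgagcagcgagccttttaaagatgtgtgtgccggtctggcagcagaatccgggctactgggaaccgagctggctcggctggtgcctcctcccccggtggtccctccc
The Kcnj8 window held 3 copies of these letters, starting at bases 24, 35 and 46 of the window, and the Kcnk5 and Kcnj5 windows held none. Windows were given for 72 of the 98 genes (97 windows, as some genes have several starts), and 3 of these windows (3.09%) held the sterol element letters, those of Kcnf1, Kcnj8 and Kcnn1, against 1.24% of all 32851 windows. The binding letters of the adrenal factor SF-1, AAGGTCA, were in 3 member windows (3.09%), those of Kcnf1, Kcnh1 and Kcnj16, against 4.72% of all windows. The cAMP response element TGACGTCA was in none of the 97 member windows and in 1.79% of all. Both strands were searched for each motif, and a match is a match of letters only. Kcnj8 and Kcnn1 had nearly equal means in both groups, at 256 and 264 and at 83.1 and 83.5, and Kcnf1 was under 5 in both.

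Of the 98 genes, 54 had a mean of 10 or more over the 12 libraries, 22 had one from 1 to 10, 15 had one above 0 and under 1, and 7 were listed at 0 in both groups. Those at 0 were Kcna10, Kcnh7, Kcnj1, Kcnk10, Kcnk15, Kcnk18 and Kcnmb3. All 8 members of the calcium- or sodium-activated family passed a mean of 10. Only 21 of 40 voltage-gated subunits, 7 of 15 inward rectifiers and 7 of 14 two-pore channels did. So did 10 of 17 auxiliary subunits and 1 of 4 noncoding RNAs. Of the 54, 1 (Kcne3) passed only through the combined group, and 5 genes just under the limit, Kcnj6, Kcnq5, Kcnj3, Kcna4 and Kcnb2, had a mean of 10 or more only in Abcg1 cKO.

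Kcnk3 outweighed every other potassium channel transcript. It encodes an acid-sensitive two-pore background channel known from zona glomerulosa cells, and whole-gland RNA does not show which cells gave its counts. Its mean normalized count of 32580 over the 12 libraries ranked 24 among all genes of the table. It made up 78.0% of the normalized counts of all 98 genes in Abcg1 cKO against 75.5% for the combined mice. Per kilobase of exon its level was 8549 normalized counts, 16.3 times that of the next member, Kcnn2, at 524. Kcnn2 encodes a small-conductance calcium-activated channel. It was followed per kilobase by the two-pore genes Kcnk5 at 175 and Kcnk2 at 144, by Kcnh2 at 128, which encodes a delayed rectifier also known from the heart, and by Kcnma1 at 109.9, the pore of the large-conductance calcium-activated channel. Kcnk9, the closest relative of Kcnk3 and its partner in mixed channels, was at 35.3 per kilobase, 242 times below Kcnk3. Its annotated exons are 12300 bases long against 3811 for Kcnk3, and in counts not set to length the gap was 75-fold. Two-pore channels had the highest median per kilobase of the classes at 78.5 (7 genes), voltage-gated subunits a median of 7.78 (21 genes). The order between neighbours below Kcnk3 was not checked against a spread over samples, since only group means were used.

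**Figure D1:**
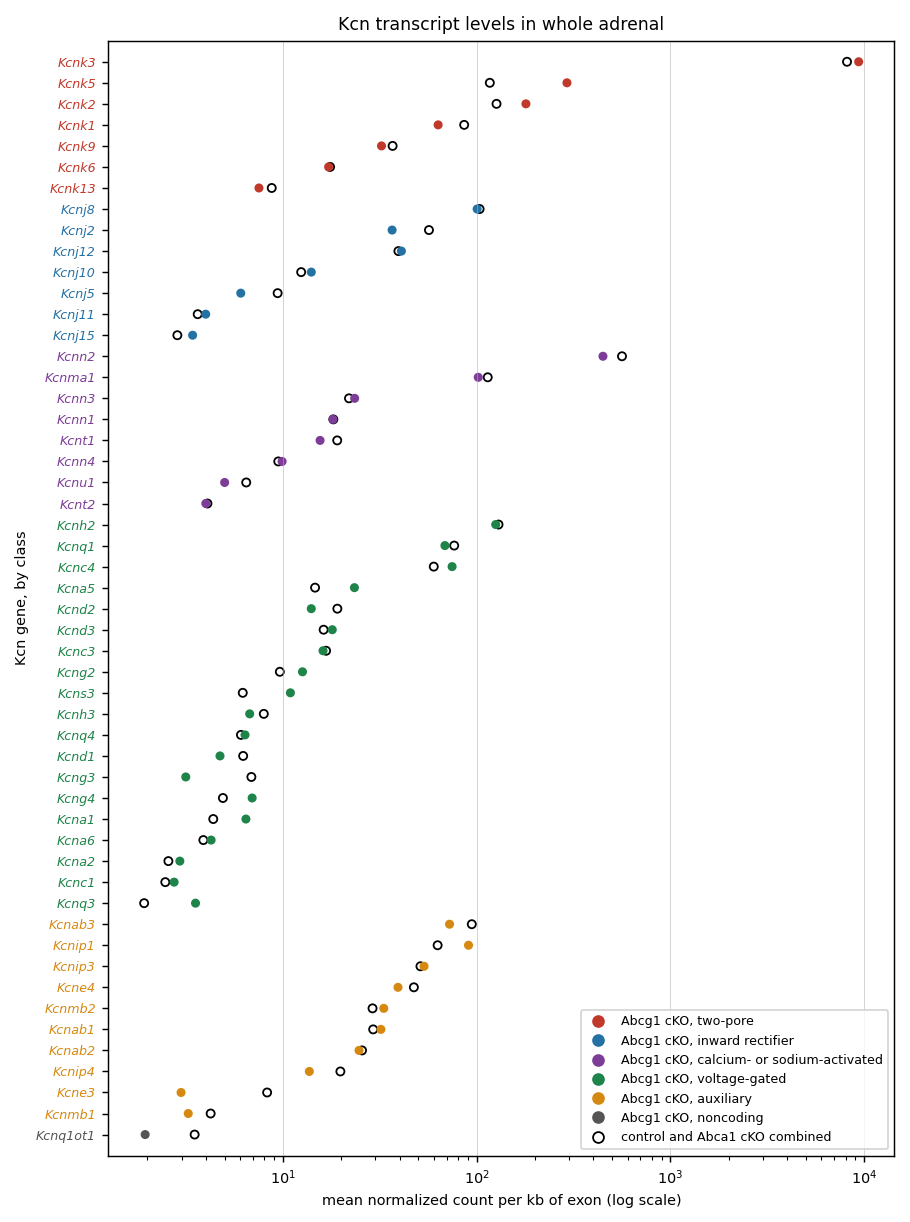
Mean normalized count per kilobase of exon (log axis) of 52 of the 54 Kcn genes with a mean of 10 or more, grouped by class. Filled points are the mean of 4 Abcg1 cKO libraries and open points the mean of 8 control and Abca1 cKO libraries, with no error bars because only means were used; Kcnk3, at 9355 and 8146, stands apart from all others.

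The comparison asks which channel transcripts differed between Abcg1 cKO adrenals and the combined group. Ratios are Abcg1 cKO over combined, with 1 added to each mean, so they understate differences of low genes, and a gene is counted as past the threshold at the study's fold of 1.2 in either direction. The study also required an adjusted P-value cutoff, which was not applied here. Among the 54 genes the median log2 ratio was 0.02, against 0.0013 over all 14305 genes with a mean of 10 or more. Of the 54, 11 (20.4%) were past 1.2-fold higher, against 10.4% of all genes, and 15 (27.8%) past 1.2-fold lower, against 12.2% of all genes. The lower ones include Kcne3, which passed the mean of 10 only through the combined group. The 5 genes with a mean of 10 or more only in Abcg1 cKO all had positive log2 ratios and are not counted. Low genes pass more often, so the counts are also given by level. At a mean of 10 to 100, 6 of 31 members (19.4%) were past the threshold higher against 17.2% of all such genes, and 8 (25.8%) lower against 32.1%. At 100 to 1000, 5 of 20 members (25%) were higher against 9.12%, and 6 (30%) lower against 9.36%. At 1000 and more, none of 3 members was higher against 7.51%, and 1, Kcnn2, was lower against 1.96%. The members at 100 to 1000 thus spread more in both directions than genes of that level, with an SD of log2 ratios over genes of 0.47 against 0.26. Most of these members, from Kcnq1ot1 at 278 down to Kcnab2 at 104.5 over the 12 libraries, lay in the lower part of this level. Level within it was not matched. The shares above are over genes, not over animals, and nothing was tested.

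**Figure D2:**
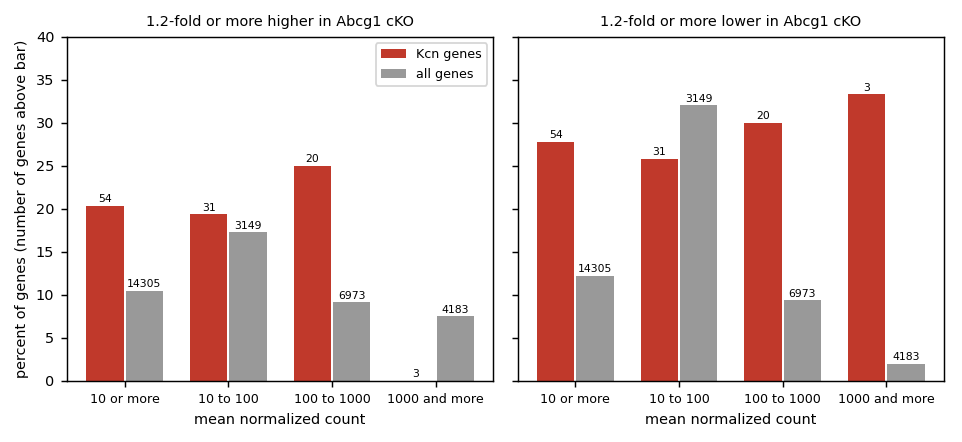
Percent of genes (vertical axis, from 0) past 1.2-fold higher (left) or lower (right) in Abcg1 cKO, for Kcn genes (red) and all genes (grey), over all levels and by mean normalized count, with the number of genes above each bar. At means of 100 to 1000 the red bars, 25% and 30% of 20 members, stand above grey bars of 9.12% and 9.36%, and the bars at 1000 and more rest on 3 members.

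**Figure D3:**
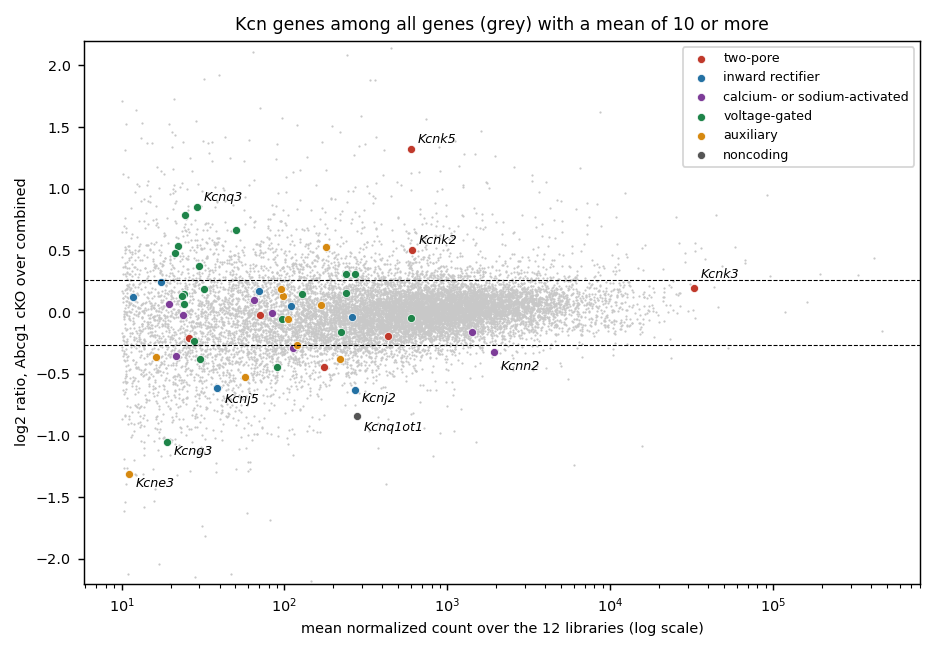
Log2 ratio of the Abcg1 cKO mean to the combined mean against the mean normalized count (log axis), with all 14305 genes in grey, Kcn genes coloured by class and the 1.2-fold limits dashed; 53 genes beyond a log2 ratio of 2.2 in either direction are not drawn. Kcnk5 lies far above the grey band of its level and Kcnq1ot1 and Kcnj2 below it.

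Among the two-pore channels, 2 of the 7 that passed a mean of 10 were past the threshold higher, against 10.4% of all genes, and 1 lower, against 12.2%. Kcnk5 had the largest ratio of any member. It encodes an alkaline-activated background channel known from the kidney tubule, lies on chromosome 14 from 20140057 to 20181809 (GRCm38, the mm10 assembly) and has no annotated exon overlap with another gene. Its mean was 991 in Abcg1 cKO against 396 for the combined mice, a ratio of 2.50 (log2 ratio 1.32). Of the 6973 genes with a mean of 100 to 1000, 0.316% had a log2 ratio at least as far from 0. Its share of all Kcn counts was 2.17% in Abcg1 cKO. Kcnk2, which encodes a stretch- and lipid-sensitive channel that sets the resting potential of zona fasciculata cells in cattle, was at 752 and 531 (log2 ratio 0.50), and 4.33% of genes of its level had as large a ratio. Kcnk2 shares 604 exon bases with an antisense gene. Kcnk1, a weakly inward rectifying channel, was on the other side at 141 and 193 (log2 ratio -0.44).

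Neither Kcnk3 nor Kcnk9 passed. Kcnk3 (chromosome 5, 30588170 to 30625271) was at 35654 in Abcg1 cKO against 31043 for the combined mice (log2 ratio 0.20), and 16.1% of genes with a mean of 1000 and more had a ratio as large. Kcnk9 (chromosome 15, 72501089 to 72546340) was at 397 and 453 (log2 ratio -0.19), and the low members Kcnk6 and Kcnk13 had log2 ratios of -0.03 and -0.21. The normalized counts summed over all 98 genes were 45723 and 41111, while without Kcnk3 the sums of the other 97 were 10070 and 10069. Zona glomerulosa markers beside these were mixed: of 7 with a mean of 10 or more, 2 were past 1.2-fold higher and 1 lower, their sum was 19872 against 20095, and none of the 7 was at 0. Kcnk3 is also known from brown fat cells. All 5 adipocyte markers (Adipoq, Plin1, Cidec, Car3 and Fabp4, none at 0) were higher, with a sum of 31766 against 13225. None of the 5 is particular to brown fat. Of 5 zona fasciculata markers, 4 were past 1.2-fold higher and none lower, and all 11 chromaffin markers were higher. All 4 lymphocyte markers with a mean of 10 or more were lower. The part of these cell types in the Kcnk3 value was not tested.

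**Figure D4:**
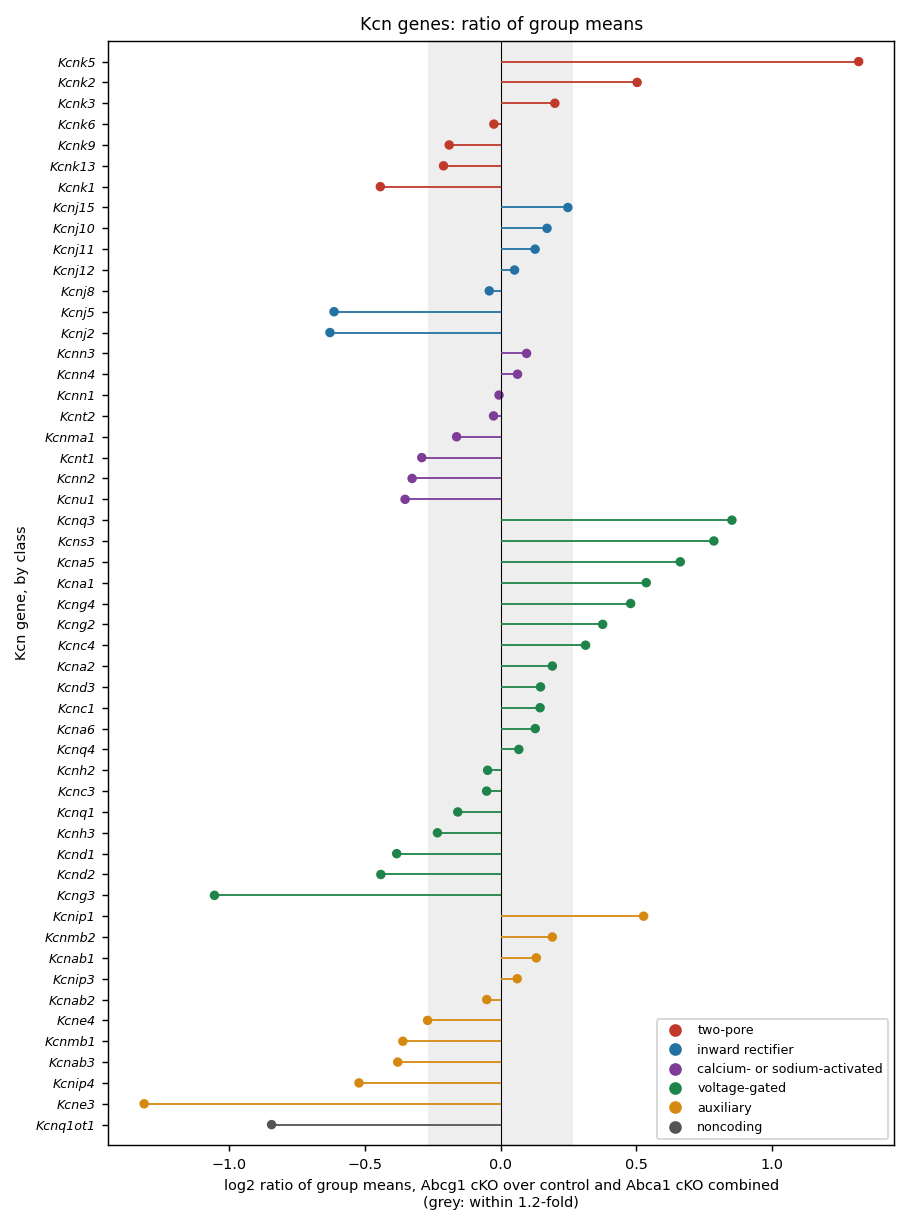
Log2 ratio of the Abcg1 cKO mean to the combined mean for 52 of the 54 Kcn genes by class, with lines drawn from 0 and grey marking ratios within 1.2-fold; no error is drawn, as only means were used. Kcnk5 sits highest at 1.32 and Kcne3 lowest at -1.31. All 3 members of the calcium- or sodium-activated family outside the grey band are on the low side.

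No inward rectifier was past the threshold higher, against 10.4% of all genes, and 2 of 7 were past it lower, against 12.2%. At a mean of 10 to 100 it was 1 of 4 lower, beside 32.1% of all genes of that level. Kcnj2 (chromosome 11, 111066164 to 111076821), the classical strong inward rectifier of excitable cells and vessels, was at 199 in Abcg1 cKO against 309 for the combined mice (log2 ratio -0.63), and 2.42% of genes of its level had as large a ratio. Kcnj5, a G protein-gated channel whose human counterpart is often mutated in aldosterone-producing adenomas, was at 28.4 and 44.0 (log2 ratio -0.61). At its lower level 16.3% of genes had as large a ratio. Kcnj5 was a minor transcript in these glands, 1033 times below Kcnk3 per kilobase, and its G protein-gated partners Kcnj3, Kcnj6 and Kcnj9 were at 9.04, 9.95 and 6.18 over the 12 libraries. Kcnj8, the pore of the vascular channel closed by ATP, was at 256 and 264, beside its partner Abcc9, the sulfonylurea receptor of vessels, at 657 and 587. The other pore of this channel type, Kcnj11, and its receptor Abcc8 were at 11.8 and 21.3 over the 12 libraries. Kcnj12 (112 and 108), the glial Kcnj10 (75.7 and 67.1) and Kcnj15 (19.7 and 16.4) stayed within 1.2-fold. Among 7 smooth muscle and pericyte markers with a mean of 10 or more, 2 were past 1.2-fold higher and none lower (sums 5264 and 4418, none at 0).

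Of the 8 members of the calcium- or sodium-activated family, none was past the threshold higher, against 10.4% of all genes. Past it lower were 3, against 12.2%. At a mean of 10 to 100 it was 1 of 5, beside 32.1% of all genes of that level. The class summed to 3278 in Abcg1 cKO against 3877 in the combined group. Kcnn2 accounted for most of this difference. It was at 1652 and 2072 (log2 ratio -0.33), and 5.71% of genes with a mean of 1000 and more had as large a ratio. Kcnma1, whose channel speeds repolarization in chromaffin cells, was at 1315 and 1472 (log2 ratio -0.16) and did not pass. Kcnt1, a sodium-activated channel, was at 97.9 and 120.1 (log2 ratio -0.29), and Kcnu1, the testis relative of Kcnma1, at 18.04 and 23.31 (log2 ratio -0.35). Kcnu1 is counted here by family, as its channel is opened by neither calcium nor sodium. Kcnn1, Kcnn3, Kcnn4 and Kcnt2 had log2 ratios from -0.03 to 0.10.

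Of the 21 voltage-gated subunits that passed a mean of 10, 8 (38.1%) were past the threshold higher against 10.4% of all genes and 3 (14.3%) lower against 12.2%, with a median log2 ratio of 0.15. At a mean of 10 to 100, where 15 of the 21 lie, 6 were past it higher and 3 lower, beside 17.2% and 32.1% of all genes of that level, and 7 of these 11 genes had a mean under 50. Kcnc4, a fast repolarizing channel, was at 274 in Abcg1 cKO against 220.1 for the combined mice (log2 ratio 0.31), and 13.1% of genes of its level had as large a ratio. Subunits that are electrically silent alone and modify other voltage-gated channels went both ways: Kcns3 was at 34.6 and 19.6 (log2 ratio 0.79), Kcng4 at 26.4 and 18.7 (0.48) and Kcng2 at 35.5 and 27.1 (0.38), but Kcng3 at 10.6 and 23.1 (-1.06).

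Kcnq3 was at 41.8 and 22.7 (log2 ratio 0.85). It encodes a subunit of the M-current channel of nerve cells, and its level per kilobase of exon, 2.46 over the 12 libraries, was the lowest of the 54 genes. Kcna5 was at 66.9 and 41.9 (log2 ratio 0.66) and Kcna1 at 28.4 and 19.3 (0.54). Both encode Shaker-type delayed rectifiers. On the lower side were the A-type channels Kcnd2 at 72.1 and 98.4 (log2 ratio -0.44) and Kcnd1 at 25.03 and 32.95 (-0.38), while their relative Kcnd3 was at 137 and 123 (0.15). Kcnh2 was at 582 and 602 (log2 ratio -0.05) and Kcnq1 at 208 and 232 (-0.16).

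Several of these channels are known from chromaffin cells. All 11 chromaffin markers, among them Th, Pnmt and Chga, were past 1.2-fold higher in Abcg1 cKO, with a median log2 ratio of 0.41, a sum of 180957 against 133177 and none at 0. Of 5 zona fasciculata markers, 4 were past it higher (sums 913890 and 690964), as were 2 of 4 Schwann and sustentacular markers (267 and 255). None of 5 endothelial markers passed (11506 and 12378), 1 of 5 macrophage markers was past it lower (10571 and 11016), and so were all 4 lymphocyte markers that reached a mean of 10 (43.1 and 82.8). No marker of these lists was at 0. The lymphocyte channel Kcna3 was at 6.49 and 3.62. The part of the tissue's composition in the channel ratios was not tested.

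Among auxiliary subunits, 1 of 10 was past the threshold higher against 10.4% of all genes and 5 lower against 12.2%, with a median log2 ratio of -0.16. Of the 5 lower ones, 3 were among the 5 subunits with a mean of 10 to 100, a level at which 32.1% of all genes were past it lower. Of these 3, Kcne3 passed the mean of 10 only through the combined group. Kcnip1, a calcium-binding partner of the Kcnd channels, was at 225 in Abcg1 cKO against 156 for the combined mice (log2 ratio 0.53), and 3.84% of genes of its level had as large a ratio. Its relatives Kcnip3, at 173 and 165 (log2 ratio 0.06), and Kcnip4, at 44.1 and 63.8 (-0.52), did not share this. Kcnab3, a cytoplasmic beta subunit of Shaker-type channels, was at 184 and 239 (log2 ratio -0.38), while Kcnab1 and Kcnab2 stayed within 1.2-fold. Kcne4, an inhibitory partner of Kcnq1, was at 104 and 126 (log2 ratio -0.27). Kcne3, which holds Kcnq1 channels open, was at 5.08 and 14.1 (log2 ratio -1.31), about 20.3 and 113 normalized counts over the 4 and 8 libraries. Of the beta subunits of the Kcnma1 channel, the chromaffin type Kcnmb2 was at 104 and 90.7 (log2 ratio 0.19) and the smooth muscle type Kcnmb1 at 13.6 and 17.8 (-0.36).

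Kcnq1ot1, a long imprinted noncoding RNA that is read antisense to Kcnq1 and silences neighbouring genes on the paternal chromosome, was at 181 in Abcg1 cKO against 326 for the combined mice (log2 ratio -0.84). Of the genes of its level 1.15% had as large a ratio. It lies on chromosome 7 from 143203458 to 143296549 inside the Kcnq1 gene, and shares 121 exon bases with it on the opposite strand. The library kit keeps the strand, but the strand setting of the counting was not stated in any source at hand, so reads of the pair may be mixed. RNAs that mostly lack a poly(A) tail were also lower in these poly(A)-selected libraries. The ribosomal precursor Rn45s was at 116183 in Abcg1 cKO against 645559 for the combined mice (log2 ratio -2.47), which is 0.615% and 3.53% of all normalized counts. Rpph1, the RNA of ribonuclease P, was at 63.4 and 986 (-3.94) and Rmrp, that of a related ribonuclease, at 41.6 and 523 (-3.62). Of 26 small nucleolar RNAs with a mean of 10 or more, 15 were past 1.2-fold lower, against 12.2% of all genes. Past it higher was 1, against 10.4%. At a mean of 10 to 100, 32.1% of all genes were past it lower and 17.2% higher. These RNAs were chosen after their values were seen, and their part in the Kcnq1ot1 value was not tested. In all, 17 of the 54 members share exon bases with another annotated gene, each time on the opposite strand. The other noncoding members, Kcnd3os, Kcnmb4os1 and Kcnmb4os2, had means under 3 in both groups.

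Of the other genes that set membrane potential and calcium entry in these cells, 53 of 54 listed were in the table and 49 had a mean of 10 or more, of which 12 (24.5%) were past 1.2-fold higher against 10.4% of all genes and 5 (10.2%) lower against 12.2% (median log2 ratio 0.07). The L-type and the T-type calcium channel pore with the highest counts were both lower. Cacna1c, an L-type pore, was at 3252 in Abcg1 cKO against 4456 for the combined mice (log2 ratio -0.45), and Cacna1h, the T-type pore of zona glomerulosa cells, at 1581 and 2031 (-0.36). Cacna1d, a further L-type pore, was at 452 and 377 (log2 ratio 0.26) and within the threshold. Cacna1b, the N-type pore of nerve and chromaffin cells, was at 153 and 126 (log2 ratio 0.28), Scn3a, a sodium channel, at 194 and 140.1 (0.46), and the sodium leak channel Nalcn at 368 and 304 (0.27). Of the beta subunits of the sodium pump, which builds the potassium gradient, Atp1b1 was past the threshold higher at 1423 and 1113 (log2 ratio 0.35) and Atp1b2 lower at 401 and 488 (-0.28). Calcium pumps Atp2b2 and Atp2b4 (0.30 and 0.30), the kinase subunit Camk2b (0.40) and the angiotensin receptor Agtr1a, at 3663 and 3047 (0.27), were also past it higher, and the sodium channel Scn8a, at 97.9 and 126 (-0.37), lower. Cyp11b2, at the end of this pathway, had a log2 ratio of 0.14.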

How the data were processed

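RNA of whole adrenals was sequenced with a polyA-selected, stranded kit in 12 libraries. The study's methods name both the NovaSeq and the NextSeq platform and do not say which library was run on which. A difference between platforms was not examined here. Per the submitters' processing notes and the study's methods, the authors trimmed reads with cutadapt 4.0, aligned them with STAR 2.7.10a to the mm10 genome, counted those with a unique position for each gene with HTSeq 0.13.5 and normalized counts with DESeq2 1.38.3. The signal values used here are the normalized counts that the authors deposited as a mean over each of 2 groups, which are divided by size factors and not by gene length. A further 12 columns of single values have names found in no sample's label and were left out, so no test of samples, no left-out library and no planned limma fit could be run. Columns of the authors' own fold changes and p-values were not used. The means do not give the raw depth of a library.

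Log2 ratios used a pseudocount of 1 (Python 3.11.15, pandas 2.3.3), and genes with a mean of 10 or more, weighted over the libraries, were counted at the study's fold of 1.2. The study's adjusted P-value cutoff was not applied. The counting was tested on simulated data with counting noise but no variation between animals, and with planted changes well past the threshold. That test does not show how often genes pass 1.2-fold wrongly. Levels per kilobase used the union of exons in GENCODE M21 basic (GRCm38) for all 98 members, which may differ from the annotation the authors counted on. Genes were named by this rule: Kcnk3, Kcnk9 and Kcnj5, all members with a mean of 100 or more, the 8 highest and 8 lowest ratios, the 3 most abundant members of each class, and pathway genes past the threshold with a mean of 100 or more. Other members named for their role were chosen after their values were seen. The values of some genes that the rule names are not reported here, and they are left out of the plots that name each gene, but all counts and sums include them. Members, classes and lists were chosen with earlier results of these data known. Alternatives were other pseudocounts, filters, fold thresholds and centring.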

Additional observations from a re-analysis of the deposited data

How the results depend on the processing

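The median log2 ratio of the members stayed within 0.1 of 0 under all 7 alternatives run for it, but its sign was not stable, at -0.03 over the 33 members with a mean of 50 or more and 0.06 over all 91 members above 0. The counts of members past 1.2-fold, 11 higher and 15 lower, depended on filter and threshold. They were 25 and 25 over members above 0, where 13.7% and 18.6% of all genes passed, and 6 and 9 over a mean of 50 or more, where 9.01% and 8.42% passed. They were 4 and 5 at a threshold of 1.5-fold, where 2.59% and 3.26% of all genes passed, and 1 (Kcnk5) and 2 (Kcng3 and Kcne3) at 2-fold, where 0.741% and 0.895% passed. Kcne3, which is in both lower counts, passed the filter only through the combined group. The smaller counts follow from fewer genes or a stricter threshold. Pseudocounts of 0.1 and 10, centring on the median of all genes and, added after the data were seen, leaving out the noncoding RNA or the 17 members with overlapping exons moved neither count by more than 1.5 times. Of 105 recomputed ratios of named members, 6 moved by more than 1.2-fold and none changed sign. With a pseudocount of 10 the log2 ratio was -0.68 for Kcne3 and -0.68 for Kcng3, and the other 4 were of noncoding RNAs near 0. No paired analysis was possible because only group means could be used, and no library could be left out for the same reason. No difference between the means of 4 and 8 libraries was set against the spread between animals.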

Other observations

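Around Kcnq1ot1, the imprinted gene Cdkn1c, which restrains cell division, averaged 9057 normalized counts in Abcg1 cKO against 7419 for the combined mice (log2 ratio 0.29). Phlda2, a further imprinted gene of this cluster, was at 22.7 and 16.5 (log2 ratio 0.44). Both were past 1.2-fold higher. So were 7.51% of all genes at the level of Cdkn1c (1000 and more) and 17.2% at that of Phlda2 (10 to 100). Slc22a18, Tssc4, Cd81 and Nap1l4 had log2 ratios from -0.09 to 0.09. Ascl2, at 8.81 and 7.14, was under a mean of 10 and is not counted. The part of Kcnq1ot1 in these values was not tested. Of 7 other long noncoding RNAs, Malat1 was at 19676 and 25444 (log2 ratio -0.37), Meg3 at 8812 and 11232 (-0.35) and Mirg at 98.1 and 129 (-0.39), while Neat1, Rian and Airn lay between -0.07 and 0.07 and Snhg14 at -0.26. The ribosomal precursor Rn45s, with a log2 ratio of -2.47, was lower as well. Past 1.2-fold lower were also 15 of 26 small nucleolar RNAs, against 12.2% of all genes and 32.1% of those at 10 to 100. The part of these RNAs in the values above was not tested. These genes were chosen after the value of Kcnq1ot1 had been seen, and no spread between animals is given for them.

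Kcna1, Kcna5 and Kcna6 are neighbours on chromosome 6 between 126532551 and 126740674. Their log2 ratios were 0.54, 0.66 and 0.13, and 40.4% of the exon bases of Kcna6 overlap an antisense gene. Kcna2 and Kcna3, neighbours on chromosome 3, were at 35.0 and 30.5 and at 6.49 and 3.62, and Kcna10 beside them was listed at 0.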
